A study of Mus musculus with 28 samples.

Results

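The angiopoietin-like genes encode secreted glycoproteins that resemble the angiopoietins, and 5 of them (Angptl1, Angptl2, Angptl4, Angptl6 and Angptl7) are described here in the remodeling outflow vein of the mouse carotid-jugular arteriovenous fistula (AVF). They were chosen by symbol from the 7 family members in a table of 56980 genes. Of the 5, 4 passed the filter on low counts and were tested among 12673 genes, and Angptl6 did not pass. Bulk RNA-seq measured single vessels in 25 libraries, 7 from contralateral jugular veins and 8, 5 and 5 from early, mid and late AVFs, whose titles carry the numbers 3, 10 and 21 for the days after anastomosis. The study's text states that the actual collection days varied within each AVF group, most widely in the early one. Single-cell RNA-seq added 1 library each from contralateral veins, early AVFs and late AVFs, each made from pooled vessels of male and female mice and, per the study's text, collected somewhat later after surgery than the bulk AVFs of the same name.

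All vessels came from male and female C57BL/6 mice that had a subtotal nephrectomy before the jugular vein was joined by its end to the side of the carotid artery, so the contralateral veins are controls from uremic and operated mice and not from untouched ones. The labels do not tie a contralateral vein to a time point. The bulk groups held 5 female and 2 male mice (contralateral), 3 and 5 (early), 3 and 2 (mid) and 3 and 2 (late). Bulk tissue was ground whole, so fewer cells of a type and less RNA per cell cannot be told apart in the bulk values.

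Most angiopoietin-like proteins carry a coiled-coil stretch at the amino end and a fibrinogen-like domain at the carboxyl end, yet they do not bind the angiopoietin receptor Tie2 and act through integrins, immunoglobulin-like receptors or enzymes. Angptl4 blocks lipoprotein lipase, the enzyme that frees fatty acids from circulating triglyceride, and its gene is a classical target of the peroxisome proliferator-activated receptors, of hypoxia and of glucocorticoids. Angptl2 is a proinflammatory matrix-associated factor that signals through integrin alpha5 beta1, Angptl1 is known as an inhibitor of angiogenesis, Angptl6 has been studied in energy balance, and Angptl7 is a matrix-bound protein best known from the outflow tissue of the eye.

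The genes have unusual surroundings, which bear on what a read count can mean. In GRCm38 with GENCODE M21, Angptl1 (chromosome 1, 156838562 to 156861078, plus strand) lies inside Ralgps2, and Angptl2 (chromosome 2, 33216069 to 33247717, plus strand) lies inside Ralgps1, the paralog of Ralgps2. Angptl7 (chromosome 4, 148495183 to 148500460, minus strand) lies inside Mtor. Each host gene runs on the opposite strand. Angptl4 (chromosome 17, 33773750 to 33781830, minus strand) overlaps no annotated gene, and Angptl6 (chromosome 9, 20873808 to 20879727, minus strand) overlaps A230050P20Rik. Exons of other genes cover 465 of the 2841 exonic bases of Angptl1 and 265 of the 1582 of Angptl6, but none of those of Angptl2, Angptl4 or Angptl7. Whether reads were counted by strand is not given in the sources used here, so in the shared bases reads from both genes cannot be told apart. The bulk values of 1 host, Ralgps2, did not move with its guest. It averaged 91.5 ± 102 CPM (SD, n = 7) in contralateral veins and 12.3 ± 4.54 (n = 8) in early AVFs. This was a called fall (log2 fold change -2.90 ± 0.58 SE, adjusted p = 0.000577, edgeR), while Angptl1 had a mean of 37.9 and then 59.3 CPM. Ralgps1 and Mtor had log2 fold changes in the direction of their guests, none called. In early, mid and late AVFs these were 2.17 ± 1.03, 2.11 ± 1.10 and 2.66 ± 1.11 for Ralgps1 and 0.94 ± 0.59, 1.11 ± 0.65 and 1.14 ± 0.65 for Mtor. Angptl1 also overlaps Gm37802, which averaged 0.100 CPM in contralateral veins and 0.747, 1.03 and 0.849 in early, mid and late AVFs.

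The RefSeq promoter table held 4 of the 5 genes, without Angptl4. The 250 bases before the RefSeq start site are shown for Angptl1, Angptl2 and Angptl7, the 3 tested genes whose mean was above that of the contralateral veins at every time. For Angptl1 the RefSeq start lies downstream of the GENCODE start (156838562), so its window falls inside the gene as placed above. Capitals mark matches on either strand to TGACGT, the core of a cyclic AMP response element. The windows are chr1:156838773-156839022 (plus strand), chr2:33215711-33215960 (plus strand) and chr4:148500463-148500712 (minus strand) of GRCm38.p6, each written 5′ to 3′.
Angptl1: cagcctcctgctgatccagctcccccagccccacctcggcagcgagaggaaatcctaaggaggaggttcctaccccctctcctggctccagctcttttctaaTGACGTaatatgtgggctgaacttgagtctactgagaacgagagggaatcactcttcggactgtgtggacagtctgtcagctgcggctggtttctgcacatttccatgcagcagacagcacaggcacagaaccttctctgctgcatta
Angptl2: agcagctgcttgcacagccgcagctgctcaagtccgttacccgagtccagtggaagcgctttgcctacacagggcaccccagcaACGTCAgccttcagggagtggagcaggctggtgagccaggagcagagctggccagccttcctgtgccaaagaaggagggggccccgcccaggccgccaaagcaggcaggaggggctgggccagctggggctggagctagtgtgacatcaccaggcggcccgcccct
Angptl7: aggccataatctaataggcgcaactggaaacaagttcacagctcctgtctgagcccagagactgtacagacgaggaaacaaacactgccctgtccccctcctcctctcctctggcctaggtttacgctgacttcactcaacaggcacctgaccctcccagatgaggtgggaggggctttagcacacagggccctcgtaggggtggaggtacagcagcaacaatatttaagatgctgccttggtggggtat
Angptl1 held the 6 letters at position -148 and Angptl2, on the reverse strand, at -166, counted from the RefSeq start site, and 7.51% of the 32851 promoters in the table held a match in their whole 300-base windows. The 300-base windows of the 4 genes held no match to TGANTCA (7.81% of all promoters), GGAATG (14.66%), ACGTG (19.62%), AGGTCA (16.26%) or TATAAA (13.62%). The Angptl6 and Angptl7 windows held no match to any of the 6 motifs. A match is a string of letters and not a measured binding site.

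Total counts ran from 20254173 to 67457501 per bulk library, and levels are given as CPM, which scales counts to the sum over the tested genes after TMM scaling. The contralateral libraries stood apart in 1 respect that bears on low genes. Between 363 and 2848 of the 12673 tested genes had a count of 0 in a contralateral library, whereas the range was 14 to 595 for early, 15 to 38 for mid and 10 to 30 for late libraries. Summed markers of cell types also differed. Endothelial markers (8 genes) ran from 2255 to 3907 CPM in contralateral veins and from 325 to 608 in early AVFs, and smooth muscle and mural markers (8 genes) from 9760 to 21318 and from 1070 to 2646. Fibroblast markers (8 genes) ran from 17013 to 43135 CPM in contralateral veins, and the early, mid and late ranges were 3619 to 40006, 37772 to 58775 and 33530 to 70572. Mono/macrophage markers (8 genes) ran from 1757 to 6614, 10353 to 30599, 9975 to 13751 and 6560 to 14177 CPM in the same order. Parathyroid and skeletal muscle markers reached 18637 and 8948 CPM in single AVF libraries.

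In early AVFs 1 of the 4 tested genes was called, Angptl4, at an adjusted p under 0.01 and a log2 fold change of at least 1. The same rule called 12.6% of all genes tested. In mid AVFs 1 of 4 was called, Angptl2 (6.05% of all genes), and in late AVFs 0 of 4 (5.33% of all genes), where 3 had an unadjusted p under 0.05, DESeq2 called 1 and the edgeR likelihood ratio test called 2. Between times, 0 of 4 were called for mid against early AVFs (0.00789% of all genes), late against early AVFs (3.01%) and late against mid AVFs (0%). The shares of all genes whose groups did not overlap were 8.51% and 2.11% for mid against early and late against mid AVFs, where 0 of 4 members were apart. In the 3 comparisons between times DESeq2 and the likelihood ratio test also called 0, and 1, 2 and 0 of the genes had an unadjusted p under 0.05. The contrasts with the contralateral vein share the same 7 control libraries.

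**Figure D1:**
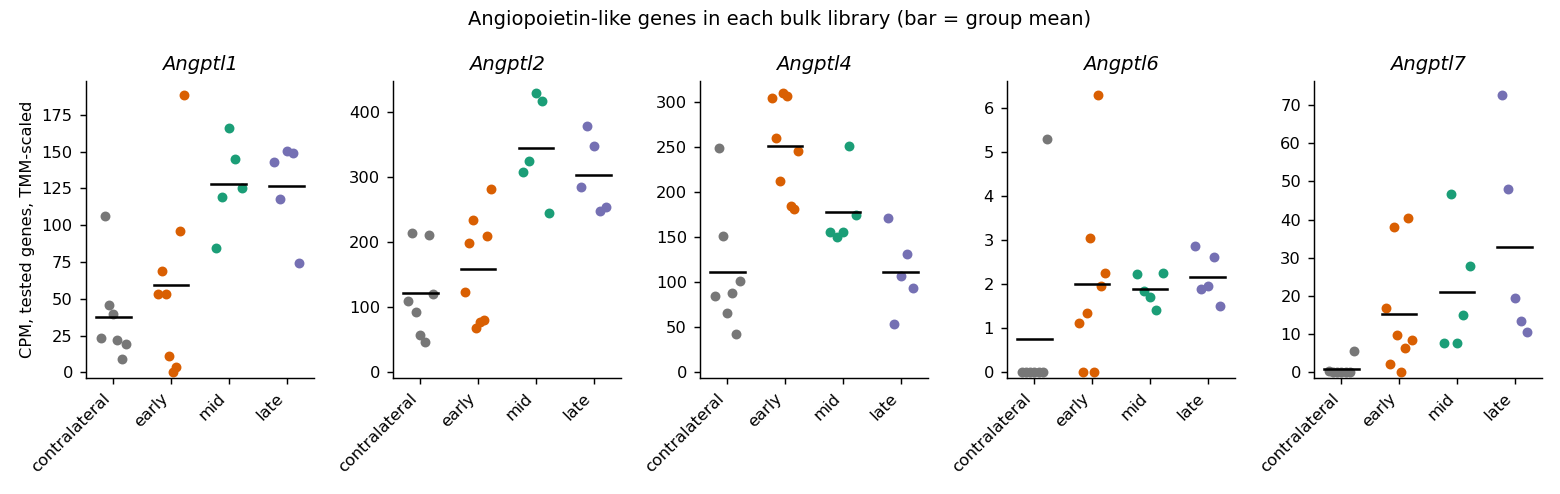
Level of each of the 5 genes in every bulk library (y axis, CPM, one scale per gene; x axis, group; points are libraries and bars group means). Angptl2 was above the contralateral range in all mid and late AVFs, Angptl4 was highest in early AVFs, and Angptl6 and Angptl7 were near 0 in all contralateral veins but 1.

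Angptl4, the lipoprotein lipase inhibitor, rose in early AVFs and lay within the contralateral range in late AVFs. In the 7 contralateral veins it ran from 42.0 CPM (vein 632) through a median of 87.4 to 248 (vein 28), and in the 8 early AVFs from 181 through 253 to 310. Every early AVF was above 6 of the 7 contralateral veins, and vein 28 lay within the early range. Vein 28 had the lowest total count of all bulk libraries, 20254173, and the most tested genes at 0, 2848. What part this has in its Angptl4 level was not tested. In early AVFs 0 of the 4 tested members were wholly apart from the veins, as 6.82% of all genes were in one direction or the other. The means were 111 ± 69.1 CPM (SD, n = 7) and 251 ± 53.7 (n = 8), a log2 fold change of 1.17 ± 0.30 (SE) with an adjusted p of 0.00479 (edgeR quasi-likelihood test). Mid AVFs 12, 13, 14, 9 and 15 had 156, 149.6, 156, 174 and 251 CPM. That placed them between the early and the contralateral medians, and the log2 fold change against the vein was 0.67 ± 0.33 (adjusted p = 0.192). Late AVFs 16, 17, 19, 23 and 24 had 171, 53.1, 107, 131 and 93.8 CPM, inside the range of the contralateral veins (log2 fold change 0.00 ± 0.33, adjusted p = 0.998). All 5 late AVFs were below all 8 early AVFs, which held for 15.5% of all genes tested in one direction or the other. The late against early log2 fold change was -1.17 ± 0.33, and its adjusted p of 0.0297 missed the threshold. Leaving out 1 library ended the early call for contralateral vein 27 (adjusted p = 0.0101) and 35 (0.0174), early AVF 10 (0.0124), mid AVF 12 (0.0106) and 13 (0.0106) and late AVF 23 (0.0104), with log2 fold changes of 1.02 to 1.13. Summed adipocyte markers (6 genes) ran from 51.2 to 5041 CPM in early AVFs and from 1627 to 10781 in contralateral veins, and their part in the result was not tested.

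Called genes around Angptl4 function went in both directions in early AVFs. Of 11 fatty acid sensor genes tested (13 listed), 1 was called higher and 2 lower, with a median log2 fold change of -0.64 against -0.01 over all genes. Plin2, which coats lipid droplets, rose (2.39 ± 0.37, adjusted p = 3.01e-05), from a mean of 139.6 to 730 CPM, and all early AVFs were above all veins. Plin2 was then lower in late than in early AVFs (-1.77 ± 0.41, adjusted p = 0.0079). Cd36, a fatty acid transporter, fell in early AVFs (-1.39 ± 0.25, adjusted p = 0.000151). In mid AVFs 0 genes of this list were called higher and 2 lower, Fabp4, the fatty acid carrier of adipocytes and capillaries (-3.07 ± 0.60), and Cd36 (-1.60 ± 0.29). The same pair fell in late AVFs (-3.28 ± 0.60 and -2.09 ± 0.30). Pdk4, a kinase that spares glucose and a common readout of the receptors, had a log2 fold change of 1.27 ± 0.74 in early AVFs (adjusted p = 0.233). Summed adipocyte and endothelial markers had medians of 5934 and 2725 CPM in contralateral veins and 1372 and 516 in early AVFs. Their part in the values of this list and of the lists below was not tested.

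Of 8 hypoxia genes tested (9 listed), 1 was called higher in early AVFs, Hif1a (1.08 ± 0.23, adjusted p = 0.00136), and 1 lower, Ndrg1 (-1.04 ± 0.25, adjusted p = 0.00273). The median of the hypoxia list was -0.67. Vegfa, the endothelial growth factor, had a log2 fold change of -1.06 ± 0.41 (adjusted p = 0.0668). Of 6 glucocorticoid genes tested, edgeR called 0 in early AVFs, with 3 at an unadjusted p under 0.05 and 2 called by DESeq2, and the list median was -0.35. Of 6 genes tested of the lipases and their processing proteins (8 listed), Furin, the protease that cleaves Angptl4, rose (1.85 ± 0.49, adjusted p = 0.00736), and Pcsk5, another proprotein convertase, fell (-1.87 ± 0.43, adjusted p = 0.00213). Lpl, the target of Angptl4, had means of 708, 441, 517 and 426 CPM in contralateral, early, mid and late vessels (early log2 fold change -0.68 ± 0.28, adjusted p = 0.0834). Mid and late AVFs had 0 calls by edgeR in the hypoxia, glucocorticoid and lipase lists. There 4, 1 and 2 genes (mid) and 4, 2 and 3 genes (late) had an unadjusted p under 0.05, and DESeq2 called 1, 1 and 1 and then 1, 1 and 0. The likelihood ratio test called 0, 1 and 1 and then 1, 0 and 0.

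Angptl2, the proinflammatory member, rose in mid AVFs. The contralateral veins ran from 46.3 through a median of 110 to 214 CPM, and the early AVFs from 68.4 through 161 to 281, with overlapping ranges. Mid AVFs 9, 12, 13, 14 and 15 had 244, 308, 325, 427.8 and 416 CPM. Late AVFs 16, 17, 19, 23 and 24 had 285, 377, 348, 247 and 254 CPM. All mid and all late AVFs were above every contralateral vein, which was so, in one direction or the other, for 12% of all genes in the mid and 10.5% in the late comparison. The means were 122 ± 67.4 CPM (SD, n = 7), 159 ± 82.1 (n = 8), 344 ± 77.3 (n = 5) and 302 ± 57.8 (n = 5). Against the contralateral vein the log2 fold change was 0.39 ± 0.33 early (adjusted p = 0.444), 1.499 ± 0.37 mid (adjusted p = 0.00708) and 1.31 ± 0.37 late (adjusted p = 0.0196, above the threshold). Mid and early AVFs differed by 1.11 ± 0.36 (adjusted p = 0.080). The mid call was lost when any of 11 libraries was left out, at adjusted p between 0.0108 and 0.0236: contralateral veins 27, 31, 34, 35 and 633, mid AVFs 12, 13, 14 and 15, and late AVFs 16 and 23. Its log2 fold change ran from 1.29 to 1.71 over the 25 fits that each left out 1 library, but it was 0.67 in male mice only (adjusted p = 0.481) and 1.95 in female mice only (adjusted p = 0.0352). The late comparison passed when vein 28 (adjusted p = 0.00686), vein 632 (0.00836), early AVF 5 (0.00893) or early AVF 6 (0.00883) was left out.

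Angptl1, the antiangiogenic member, was not called at any time, and its SD relative to its mean was larger than that of Angptl2 or Angptl4 in contralateral and early vessels. Contralateral veins ran from 9.24 through a median of 23.3 to 106 CPM, with vein 28 apart at the top. Early AVFs ran from 0.0814 (AVF 6, 3 counts) through 53.4 to 189 CPM (AVF 10), a spread that covered the whole range of the other groups. Mid AVFs 9, 12, 13, 14 and 15 had 125, 84.7, 119, 166 and 145 CPM, and late AVFs 16, 17, 19, 23 and 24 had 143, 118, 150.4, 149 and 74.3. Mid and late AVFs were thus above 6 of the 7 contralateral veins, but for vein 28 the ranges overlapped. Vein 28 was the bulk library with the most tested genes at 0, 2848, and the part of library complexity in its level was not tested. The log2 fold changes were 0.65 ± 0.72 early (adjusted p = 0.571), 1.76 ± 0.80 mid (adjusted p = 0.160) and 1.75 ± 0.80 late (adjusted p = 0.171), with 95% intervals of 0.19 to 3.33 mid and 0.18 to 3.32 late before adjustment.

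The early AVFs with little Angptl1 were also those with little fibroblast RNA. AVFs 5, 6 and 7 had 10.95, 0.0814 and 3.32 CPM of Angptl1 and summed fibroblast markers of 11818, 5777 and 3619 CPM, while the other 5 early AVFs had 53.4 CPM or more of Angptl1 and 22452 or more of the markers. The contralateral veins did not follow this: vein 632 had the highest marker sum of its group, 43135 CPM, and the lowest Angptl1, 9.24. With AVFs 5, 6 and 7 left out, an alternative added after the data were seen, Angptl1 was called in mid and late AVFs (log2 fold changes of 1.81 and 1.81, adjusted p = 0.0062 and 0.00676) and Angptl2 too (1.54 and 1.36, adjusted p = 0.00117 and 0.00378). In that fit the early change of Angptl1 was 1.35 (adjusted p = 0.0373), and its mid and late values differed from the early one by 0.46 and 0.46 (adjusted p = 1.00 and 1.00), against 1.11 and 1.10 with all libraries. In the same fit Angptl4 was not called in early AVFs (1.17, adjusted p = 0.0167), and 7.88%, 6.93% and 6.23% of all genes were called early, mid and late. The mid and late contrasts with the vein hold no early library, but all groups share a common estimate of the spread. With all libraries the Angptl1 log2 fold changes there were 1.76 and 1.75, not called. AVFs 5 and 6 also had 353 and 595 tested genes at 0, where the other early AVFs, AVF 7 with 41 among them, had 14 to 90. What part the number of fibroblasts, library complexity or the estimate of the spread has in these values was not tested.

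**Figure D2:**
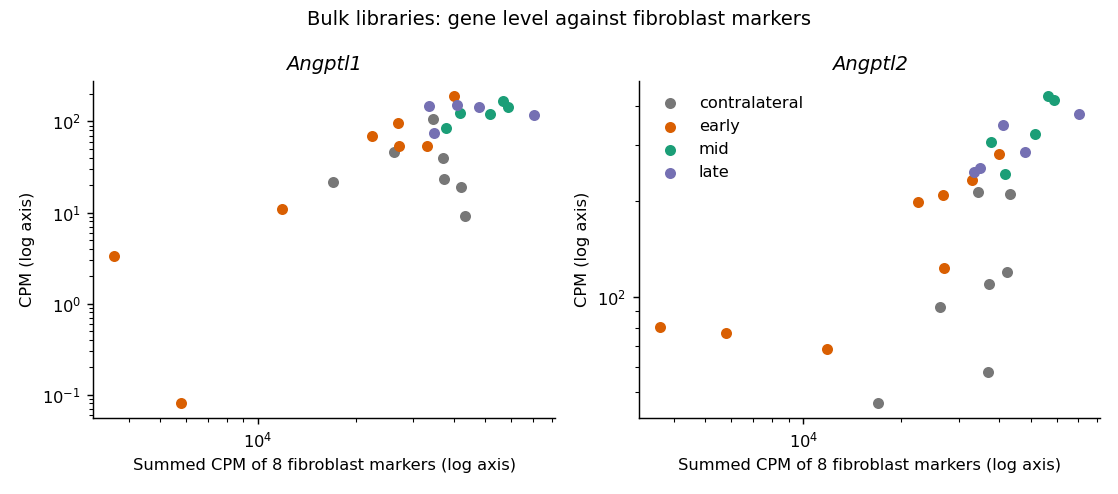
CPM of Angptl1 and Angptl2 (y axes, log scale) against the summed CPM of 8 fibroblast markers (x axes, log scale) in the 25 bulk libraries, colored by group. The 3 early AVFs lowest in fibroblast markers, 3619 to 11818 CPM, had 0.0814 to 10.95 CPM of Angptl1, and at like marker sums most contralateral veins lay below the mid and late AVFs.

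Angptl7 was at or near 0 in most contralateral veins and present in nearly all AVFs. In contralateral veins 27, 28, 31, 34, 35, 632 and 633 it had counts of 8, 2, 2, 0, 0, 0 and 164, which is at most 0.316 CPM in 6 veins and 5.66 CPM in vein 633. Early AVFs ran from 0 (AVF 6) through a median of 9.10 to 40.4 CPM. Mid AVFs 9, 12, 13, 14 and 15 had 27.9, 7.67, 46.7, 7.77 and 15.1 CPM, and late AVFs 16, 17, 19, 23 and 24 had 72.6, 48.0, 19.3, 13.3 and 10.6. Every mid and late AVF was above every contralateral vein, and vein 633 lay inside the early range. Such a separation, in one direction or the other, held for 12% of all genes in the mid and 10.5% in the late comparison. The fitted log2 fold changes of 4.09 ± 1.30, 4.55 ± 1.38 and 5.19 ± 1.41 were the largest of the 4 genes, but at adjusted p of 0.0227, 0.0287 and 0.0158 none was called. The calls depended on which libraries were kept and on the fit. Without vein 633 the fold changes were 7.39, 7.85 and 8.49 with adjusted p of 0.00022, 0.000308 and 0.000193, all called. Without early AVF 6 the late change was called as well (5.24, adjusted p = 0.0076). DESeq2 called all 3 times with vein 633 included (adjusted p = 0.000732, 0.00161 and 0.000241), and so did the edgeR likelihood ratio test. With vein 633 included, edgeR also called the late change with the filterByExpr filter (adjusted p = 0.00786), no filter (0.00703) and sex as a covariate (0.00704). Beside these values, vein 633 had 377 tested genes at 0 and vein 632 had 1988, and what part library complexity has in the zeros was not tested.

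Angptl6 stayed near the detection limit. It had 154 counts in contralateral vein 633 (5.31 CPM) and 0 in the other 6 veins. Early AVFs ran from 0 (AVFs 3 and 6) through 1.65 to 6.30 CPM (AVF 7), and all mid and late AVFs had between 1.42 and 2.87. Its mean normalized count of 45.6 was under the minimum of 100. With the filterByExpr filter, which kept 20076 genes, the log2 fold changes were 1.34 ± 1.36 early, 1.33 ± 1.48 mid and 1.52 ± 1.49 late (adjusted p = 0.504, 0.599 and 0.535).

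**Figure D3:**
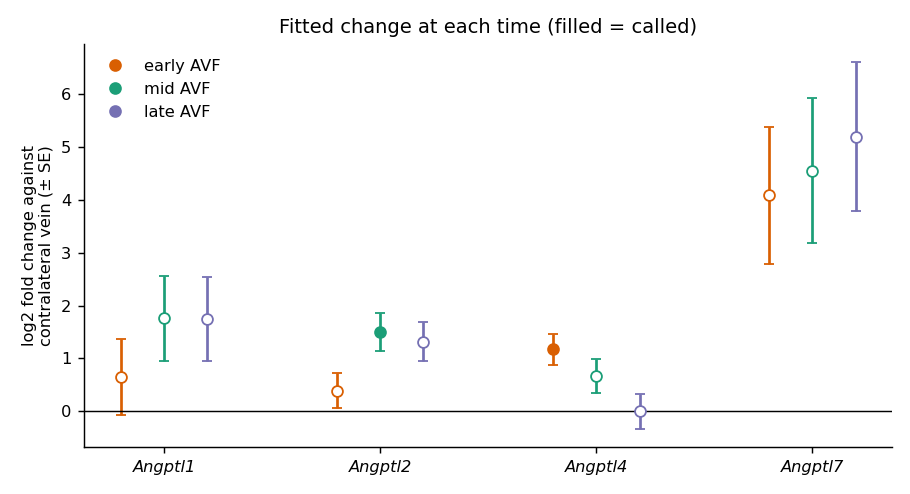
Fitted log2 fold change against the contralateral vein (y axis) with its SE for the 4 tested genes (x axis) in early, mid and late AVFs; filled points were called. Angptl4 had 1.17 in early and 0.00 in late AVFs, Angptl2 had 1.499 in mid and 1.31 in late AVFs, and the Angptl7 estimates of 4.09 to 5.19 carry the widest errors.

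Per kilobase of exon, which allows levels of different genes to be set side by side, the order changed with time. In contralateral veins Angptl4 had 31.5 ± 19.5 CPM per kilobase (SD, n = 7), Angptl2 19.4 ± 10.7 and Angptl1 13.3 ± 11.5, and neighbours in that order differed by less than the SD of the higher one. Angptl6 (0.480 ± 1.27) and Angptl7 (0.410 ± 0.977) came far below. In early AVFs Angptl4 led with 70.8 ± 15.2 (n = 8), clear of Angptl2 (25.3 ± 13.1) and Angptl1 (20.9 ± 21.9). In mid AVFs Angptl2 (54.7 ± 12.3, n = 5), Angptl4 (50.1 ± 11.9) and Angptl1 (45.1 ± 10.7) were within 1 SD of each other. In late AVFs Angptl2 (48.1 ± 9.19) and Angptl1 (44.7 ± 11.4) were ahead of Angptl4 (31.4 ± 12.4) and of Angptl7 (15.2 ± 12.4), and Angptl6 was last (1.38 ± 0.352).

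Angptl8, a family member made by liver and fat, averaged 14.8 ± 15.6 CPM in contralateral veins (0 to 39.4) and 1.94 ± 1.12, 2.04 ± 0.647 and 1.85 ± 0.926 in early, mid and late AVFs. Its log2 fold changes of -2.93 ± 1.06, -2.86 ± 1.27 and -2.9995 ± 1.28 were not called (adjusted p = 0.0461, 0.150 and 0.138).

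No difference by sex was detectable in the members with groups of this size. The interaction of sex with the early change had a male minus female difference in log2 fold change of 1.55 ± 1.67 for Angptl1, -0.47 ± 0.71 for Angptl2, 0.87 ± 0.65 for Angptl4 and -2.58 ± 2.08 for Angptl7. The adjusted p were 0.902, 0.9497, 0.821 and 0.849 (edgeR), so 0 of 4 were under 0.05, while 57 of all genes tested were. At an unadjusted p under 0.05 there were also 0 of 4. Fits to 1 sex alone moved several values. In male mice the log2 fold changes of Angptl1 were 1.9625, 2.84 and 2.89 in early, mid and late AVFs, none called. Angptl4 in early AVFs had 1.79 in male mice (adjusted p = 0.00899, called) and 1.02 in female mice (adjusted p = 0.230, not called). Angptl2 in late AVFs had 0.50 in male mice. Angptl7 had 5.54, 7.76 and 8.78 in female and 2.92, 2.62 and 2.01 in male mice, none called. For Angptl7 both male veins and the 5 female veins differed in range, 0 to 5.66 against 0 to 0.316 CPM, because vein 633 is male. In late AVFs the 3 female mice had 19.3 to 72.6 CPM of Angptl7 and the 2 male mice 10.6 and 13.3. Its male minus female difference in the late log2 fold change was -6.65 ± 2.67, with an unadjusted p of 0.0207 and an adjusted p of 0.533 (edgeR).

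The list of receptors and binding partners also held Tek, the gene of the angiopoietin receptor Tie2, which these proteins do not bind. The genes of the list moved in both directions. Of 16 tested, Tek among them, 2 were called higher and 3 lower in early AVFs, where 12.6% of all genes were called. The list median was 0.79 against -0.01 over all genes. Pirb, the mouse immunoglobulin-like receptor that binds several angiopoietin-like proteins, rose (2.10 ± 0.30, adjusted p = 9.55e-06) from a mean of 63.0 to 269 CPM, with every early AVF above every vein. It was also called in mid (1.62 ± 0.32) and late AVFs (1.33 ± 0.32). Itga5, a subunit of the Angptl2 receptor, rose in early AVFs (1.84 ± 0.43, adjusted p = 0.00247), while Itgb1, its beta subunit, had -0.58 ± 0.17 (adjusted p = 0.0143). Tek, which encodes Tie2 (-2.49 ± 0.42), Itga1, a collagen-binding integrin subunit (-2.46 ± 0.28), and Sdc2, a heparan sulfate proteoglycan (-1.53 ± 0.28), fell in early AVFs. Mid AVFs had Pirb called higher and Itga1 (-1.73 ± 0.32) and Cdh5, the cadherin of endothelial junctions (-1.75 ± 0.37), called lower. Late AVFs had Pirb higher and Cdh5 (-2.01 ± 0.37) lower. Of all genes, 6.05% were called in mid and 5.33% in late AVFs. Sdc2 and Itga1 were higher in late than in early AVFs (1.61 ± 0.30 and 1.28 ± 0.29), where 3.01% of all genes were called. Tek and Cdh5 belong to endothelium, whose summed markers had medians of 2725, 516, 682 and 729 CPM in contralateral, early, mid and late vessels, and Pirb to myeloid cells, whose mono/macrophage markers had medians of 4146, 21482, 11615 and 10752. Their part in these results was not tested.

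The genes closest to each member across the 25 libraries were named by the smallest root mean square difference in mean-centred log2 CPM. For Angptl2 these were Bgn, the matrix proteoglycan biglycan (0.42), Ppic, a cyclophilin (0.48), and Myh10, a nonmuscle myosin (0.48), where a typical gene differed by 1.75. Bgn averaged 1634, 1796, 3413 and 3580 CPM in contralateral, early, mid and late vessels. For Angptl1 they were Epha3, an ephrin receptor (0.97), Sfrp1, a secreted Wnt antagonist (1.08), and Itm2a, a membrane protein (1.12), against a median of 2.68. For Angptl4 they were Ciao2a, an iron-sulfur assembly factor (0.48), Lgals9, a galectin (0.49), and Spred1, an inhibitor of Ras signaling (0.49), against 1.74. Lgals9 averaged 244 CPM in veins and 462, 285 and 243 in early, mid and late AVFs. For Angptl7 they were Intu (1.22), Gm14548 (1.30) and St8sia2, a sialyltransferase (1.34), against 3.33, and all 3 averaged under 0.3 CPM in the veins.

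The single-cell libraries place the genes in cell types. Of 26438 barcodes, 16893 cells were kept (6319 contralateral, 4753 early and 5821 late), with median depths of 2751, 8951 and 15425 UMIs, and 11 to 12 barcodes of a library also occurred in another. They fell into 18 clusters, clustered without the angiopoietin-like genes or the markers, and 4 clusters (2, 5, 7 and 10) were fibroblast-like, with all 8 fibroblast markers raised. They held 1873, 495 and 2011 cells. With 1 library per condition there is no test, and intervals are exact 95% Poisson or binomial intervals that cover counting error only. Different clusters made up the class: contralateral fibroblast-like cells were mostly in clusters 5 (962 cells) and 10 (774), early cells in cluster 2 (426) and late cells in clusters 2 (983) and 7 (841).

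Angptl1 was the most fibroblast-restricted of the 5. Fibroblast-like cells held 96.5%, 97.0% and 98.9% of its UMIs in the contralateral, early and late library, where they held 44.6%, 21.5% and 51.4% of all UMIs. Its level in them was 76.7 CPM (72.0 to 81.6), 164 (157 to 171) and 274 (269 to 279). In mono/macrophage-like cells it was 0.586, 1.15 and 2.55 CPM, and in T cell-like cells 3.76, 1.63 and 10.6. A UMI was seen in 18.6%, 39.0% and 56.0% of fibroblast-like cells, against 0.284%, 1.54% and 3.73% of mono/macrophage-like cells, whose median depths were 3040, 12934 and 13525 UMIs against 4373, 28544 and 24973. Thinned to 2000 UMIs a cell, which left out 574, 51 and 28 shallower cells, the fibroblast shares were 10.5%, 15.2% and 23.4%, in the same order.

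Within fibroblast-like clusters the late library had the most Angptl1 in each cluster that could be compared. Cluster 2, whose leading genes include Postn and Thbs4, had 93.3 CPM (60.9 to 137, 29 cells) in the contralateral, 181 (172 to 189) in the early and 465 (456 to 474) in the late library. Cluster 5, in which 6 markers of resting fibroblasts sum to 4611 CPM, had 87.0 (81.3 to 92.9) contralateral and 322 (303 to 342) late. Cluster 7, in which 6 markers of Pi16 fibroblasts sum to 7695 CPM, had 21.2 (13.7 to 31.2), 77.5 (65.8 to 90.6) and 97.4 (93.6 to 101). Cluster 10, shallow and almost wholly contralateral, had 49.4 (38.9 to 61.8).

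The level of Angptl2 in fibroblast-like cells was 104 CPM (99.0 to 110), 100.5 (94.9 to 106) and 88.0 (85.4 to 90.6) in the contralateral, early and late library, and the bulk means were 302 CPM in late and 122 in contralateral vessels, the late ones from other collection days. In cluster 2 the 3 values were 104 (69.7 to 149), 108 (102 to 115) and 107 (103 to 111). The highest Angptl2 of a fibroblast-like cluster, 203 CPM (178 to 230), was in the 108 contralateral cells of cluster 7, where early and late cells had 64.0 and 72.1. Angptl2 was also seen outside fibroblasts. Fibroblast-like cells held 87.1%, 69.1% and 86.3% of its UMIs, smooth muscle and mural-like cells had 58.8 CPM (52.1 to 66.2) early and 34.9 (31.7 to 38.4) late, and endothelial-like cells had 35.2 (28.8 to 42.7), 22.3 (12.48 to 36.8) and 44.5 (28.2 to 66.7). The contralateral library held only 10 smooth muscle and mural-like cells, 0.54% of its UMIs, too few for a level. In bulk, contralateral veins had 9760 to 21318 CPM of their markers, so the contralateral share of 87.1% leaves this class almost unsampled. The 24 late Schwann-like cells had 134 CPM (94.7 to 184). Mono/macrophage-like cells had 2.34, 4.75 and 5.41 CPM, and erythroid-like cells, which should lack the gene, 2.75 contralateral and 1.78 early.

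**Figure D4:**
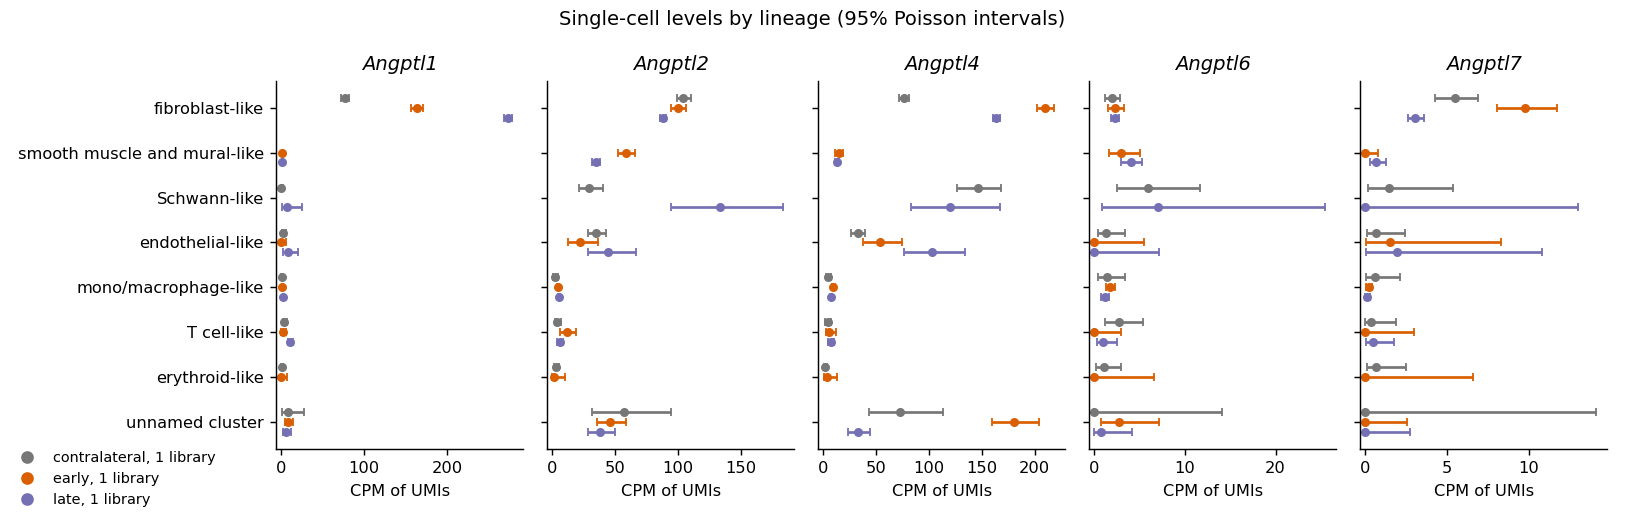
CPM of UMIs (x axes) of each gene by cell lineage (y axis) in the contralateral, early and late single-cell library, with 95% Poisson intervals for counting error; lineages under 20 cells in a library are not drawn. Angptl1 was confined almost wholly to fibroblast-like cells, at 76.7, 164 and 274 CPM, while Angptl2 and Angptl4 also reached Schwann-like, endothelial-like and unnamed cells.

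Angptl4 in fibroblast-like cells had 76.5 CPM (71.8 to 81.4) contralateral, 210 (202 to 218) early and 164 (160 to 167) late. The early value was the highest of the 3, and the late value was above the contralateral one. Late and contralateral bulk tissue both averaged 111 CPM, but the vessels for single cells were collected later after surgery than the bulk vessels of the same name, so the assays are set side by side only. The cells with a UMI were 26.4%, 68.3% and 71.9%, and 12.52%, 29.0% and 22.0% after thinning. The order differed between clusters. In cluster 2 Angptl4 had 183 CPM (136 to 241, 29 cells) in the contralateral, 216 (207 to 225) in the early and 122 (118 to 127) in the late library. In cluster 5 it had 75.4 (70.1 to 81.0) contralateral and 147 (135 to 161) late, and in cluster 7 the values were 80.4 (65.0 to 98.3), 189 (170 to 209) and 203 (197 to 209). Fibroblast-like cells held 73.5%, 78.2% and 94.2% of Angptl4 UMIs. Contralateral Schwann-like cells had 146 CPM (126 to 168), about as much as late fibroblast-like cells, and endothelial-like cells, where Angptl4 meets lipoprotein lipase on the vessel wall, had 32.6 (26.4 to 39.7), 53.5 (37.5 to 74.1) and 102.5 (76.8 to 134). The unnamed cluster of shallow cells, led by parathyroid hormone RNA, had 181 CPM (159 to 204) of Angptl4 in the early library, with the UMIs in 48 of its 505 cells. Mono/macrophage-like cells, 2079 of the 4753 early cells, had 4.39, 9.54 and 7.36 CPM and held 8.72% of the early UMIs.

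**Figure D5:**
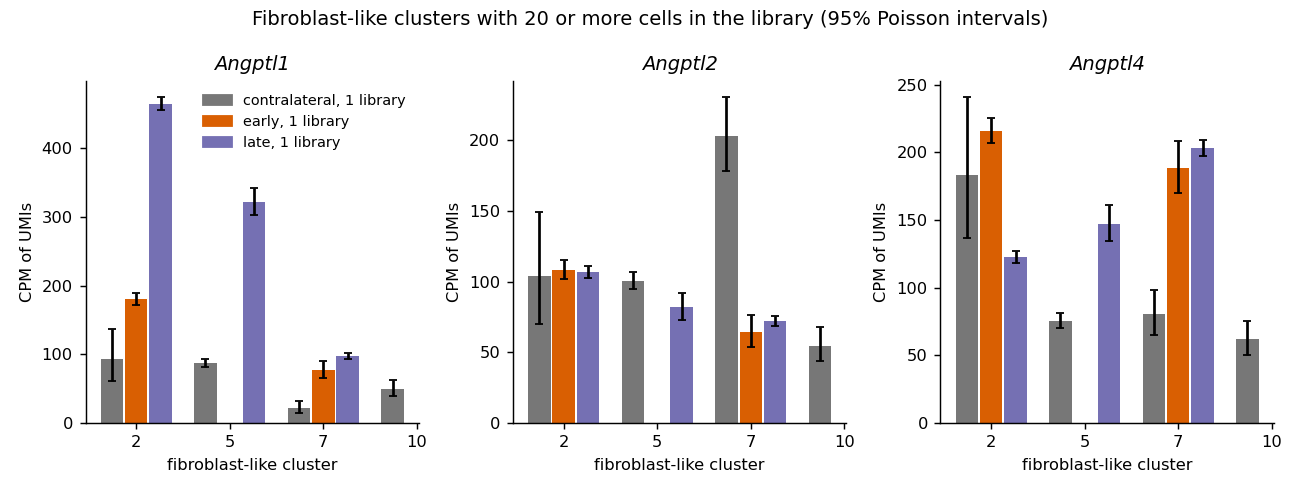
CPM of UMIs (y axes) of Angptl1, Angptl2 and Angptl4 in the 4 fibroblast-like clusters (x axes) of each single-cell library, with 95% Poisson intervals for counting error. Angptl1 was highest in the late library in clusters 2, 5 and 7 (465, 322 and 97.4 CPM), while the 3 Angptl2 values in cluster 2 lay between 104 and 108.

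Angptl7 in single cells rested on very few cells. Fibroblast-like cells held 86.6%, 91.4% and 91.7% of its UMIs, at 5.45, 9.75 and 3.06 CPM, yet only 16 of 1873, 11 of 495 and 49 of 2011 of them had any. A single cell carried 37 of the 71 contralateral UMIs, 98 of the 117 early UMIs and 38 of the 155 late UMIs. Without that cell the levels were 2.61 (1.81 to 3.65), 1.59 (0.955 to 2.48) and 2.31 (1.91 to 2.77) CPM, and the intervals overlap. The contralateral single-cell library held Angptl7, whereas 3 of the 7 bulk veins had a count of 0. No other member was so concentrated: the top cell held 0.956% to 5.14% of the UMIs of Angptl1, Angptl2 and Angptl4.

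Angptl6 was low in every lineage. Fibroblast-like cells had 1.92, 2.25 and 2.25 CPM, mono/macrophage-like cells 1.46, 1.73 and 1.15, and erythroid-like cells 1.03 contralateral. Smooth muscle and mural-like cells had 2.98 (1.63 to 5.00) early and 4.01 (2.97 to 5.30) late. Counting over members and libraries, the highest CPM among named lineages was in fibroblast-like cells in 10 of the 15 pairs. The exceptions were Angptl2 in the late and Angptl4 in the contralateral library, both highest in Schwann-like cells, and Angptl6 in all 3.

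Of the receptors, partners and lipase proteins, 5 are given by lineage, chosen after their values were seen. Pirb was highest in neutrophil-like cells in the contralateral and late library (194 and 204 CPM) and in mono/macrophage-like cells in the early one (240). Lilrb4a, a related inhibitory receptor, was highest in neutrophil-like cells in all 3 (1938, 1445 and 1495). Gpihbp1, which holds lipoprotein lipase on capillaries, was highest in endothelial-like cells (101, 285 and 159 CPM). Lpl was highest in fibroblast-like cells of the contralateral library (538) and in mono/macrophage-like cells of the early and late ones (241 and 322). Itga5 was highest in endothelial-like cells (77.5 and 152) and, in the late library, in smooth muscle and mural-like cells (173).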

How the data were processed

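Bulk RNA-seq counts per gene were deposited by the authors as 1 table of whole-number read counts, and single-cell UMI counts as 3 gene-by-cell matrices. The submitters' processing notes name STAR, Cell Ranger and the builds mm10 and GRCm38, with no role for each. Genes with a mean of at least 100 DESeq2-normalized counts were tested (12673). edgeR 4.0.16 (R 4.3.3) fitted all 25 libraries in 4 groups with TMM scaling and its quasi-likelihood test. A gene was called at a Benjamini-Hochberg adjusted p under 0.01 with log2 fold changes of 1 or more in size. SE is the fold change over the square root of F. The study's text gives 25 mice for bulk sequencing, as many as there are libraries, but the labels do not name the mouse of each. The p-values measure the spread between these libraries. DESeq2 1.42.0, other filters, sex as a covariate and leaving out each library were alternatives. Cells with 200 to 6000 genes and up to 10% mitochondrial counts were clustered (leidenalg 0.10.2, Leiden resolution 0.5) and named from markers as like a cell type. Scrublet marked 0, 2 and 120 doublets, so it did not work in the contralateral and early libraries, and no cell was removed. Scripts were tested on simulated data. The 5 members were named in every comparison. From 5 lists (receptors and partners, lipases, fatty acid sensors, hypoxia, glucocorticoid), up to 5 called genes per list and comparison were named, with others named as examples after their values were seen. The 3 nearest patterns per tested member were also named. Members and lists were chosen with earlier results of these data known. Some listed genes are not reported here.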

Additional observations from a re-analysis of the deposited data

Results flagged for a closer look

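Of 20 groups of bulk libraries examined, 4 held a library that stood apart from the rest of its group. Chance flags about 1 group in 20 if values are normally distributed. Angptl6 and Angptl7 in contralateral veins, with many zeros, are not, so the number of flags cannot be weighed against that rate. Contralateral vein 28 had 106 CPM of Angptl1, and the next vein had 46.0. Mid AVF 15 had 251 CPM of Angptl4, and the next mid AVF had 174. Contralateral vein 633 had 5.31 CPM of Angptl6, where the other 6 veins had 0. The same vein had 5.66 CPM of Angptl7, where the next vein had 0.316.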

How the results depend on the processing

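The number of tested members called in early AVFs was 1, and it was 2 with the DESeq2 Wald test and 2 with the likelihood ratio test (Angptl4 and Angptl7), and 0 with 2 groups only, with female mice only and without the 3 early libraries lowest in fibroblast markers (added after seeing the data). In mid AVFs it was 1, and 0 with DESeq2 size factors, 2 groups only, female mice or male mice, but 2 with the DESeq2 Wald test, 2 with the likelihood ratio test (Angptl2 and Angptl7) and 2 without the 3 early libraries (Angptl1 and Angptl2). In late AVFs it was 0, and 1 with the DESeq2 Wald test, the filterByExpr filter, no filter or sex as a covariate (Angptl7 each time), 2 with the likelihood ratio test (Angptl2 and Angptl7) and 2 without the 3 early libraries (Angptl1 and Angptl2). For late against early AVFs it was 0, and 1 with 2 groups only (Angptl4). Leaving out 1 library gave 0 to 2 members early, 0 to 1 mid, 0 to 2 late and 0 to 1 for late against early.

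Small log2 fold changes turned. For Angptl1 in late against mid AVFs the value was 0.0088 with no filter, 0.00056 with 2 groups only, 0.0017 with sex as a covariate and 0.054 in male mice, and -0.13 to 0.13 without 1 library. For Angptl4 in late AVFs it was 0.038 with 2 groups only, 0.046 with sex as a covariate, 0.57 in male mice, 0.056 without the 3 early libraries, and -0.28 to 0.35 without 1 library. Angptl2 in early AVFs had -0.029 in male mice. Angptl7 in mid against early AVFs had -0.30 in male mice, -0.018 without the 3 early libraries, and -0.062 to 0.84 without 1 library, and in male mice it had -0.91 for late against early and -0.61 for late against mid AVFs. Of 600 fits of 1 member without 1 library, 559 kept direction and side of the threshold, and of 216 other planned fits 188 did. Unless a library or its scaling is named, the cause was not tested. Fibroblast-like cells were highest in 10 of 15 pairs under every clustering alternative. No paired analysis was possible because the groups share no replicate numbers. Low counts limit Angptl6 and Angptl7, and each single-cell condition is 1 library.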
